A study of Mus musculus with 8 samples.

Results

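The IL-6 family cytokines, their receptors and the transcription factor gene Stat3 were followed in mouse embryonic fibroblasts given interferon-beta (IFN-beta), a cytokine that cells release on viral infection. The 10 genes were chosen by name, with earlier results of these data known. The set holds cytokines and receptors that work through the shared receptor chain gp130, plus Stat3. All 10 were found among the 24015 genes of the count tables. They are the cytokine genes Il6, Il11, Lif and Clcf1, the receptor genes Il6ra, Il11ra1, Lifr, Osmr and Il6st, and Stat3. All 10 passed the filter on low counts and were tested. They are not the whole family: in a list of 18 other gp130 family genes, 4 passed. The series presents a mouse with an HA-tagged H3.3 histone, but the RNA samples are labelled wild type. Their cells were on a C57bl/6 background, from E12.5 embryos and at passages 15 to 18. RNA was sequenced from 2 untreated libraries and from 2 libraries of cells given 100 units/mL of recombinant murine IFN-beta for 6 h. No label ties the replicates to separate cultures, so every p-value speaks of the spread among 4 libraries, a spread that may be technical.

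Cytokines of this family bind a receptor chain of their own and then engage gp130, the product of Il6st, alone or together with a partner chain. The bound complex activates JAK kinases, which phosphorylate STAT3, and STAT3 then enters the nucleus and switches on target genes, among them its own inhibitor Socs3. Fibroblasts are a known source of IL-6, IL-11 and LIF in inflamed tissue and also respond to these cytokines.

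IFN-beta raised Il6 and Stat3, and 8 of the 10 genes were not called. Il6 rose 25.5-fold and Stat3 rose 1.54-fold. In either direction 2 of 10 were called, beside 5.23% of tested genes. At an adjusted p below 0.05, 2 of 10 genes were higher, where 4.73% of the 12128 tested genes were called higher. By the same test 0 of 10 were lower, where 0.495% of tested genes were called lower. At an unadjusted p below 0.05, 3 were higher and 1 was lower, where 9.6% and 8.55% of tested genes passed in those directions. Both the DESeq2 test and limma-voom also called 0 lower. The median log2 fold change of the 10 genes was 0.28, and that of all tested genes was -0.02. With 2 libraries a group, separation is common among genes. The groups did not overlap for 6 genes on the higher side and 1 on the lower side, where 23.9% and 26.8% of tested genes separated in those directions, or 50.7% in all.

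**Figure D1:**
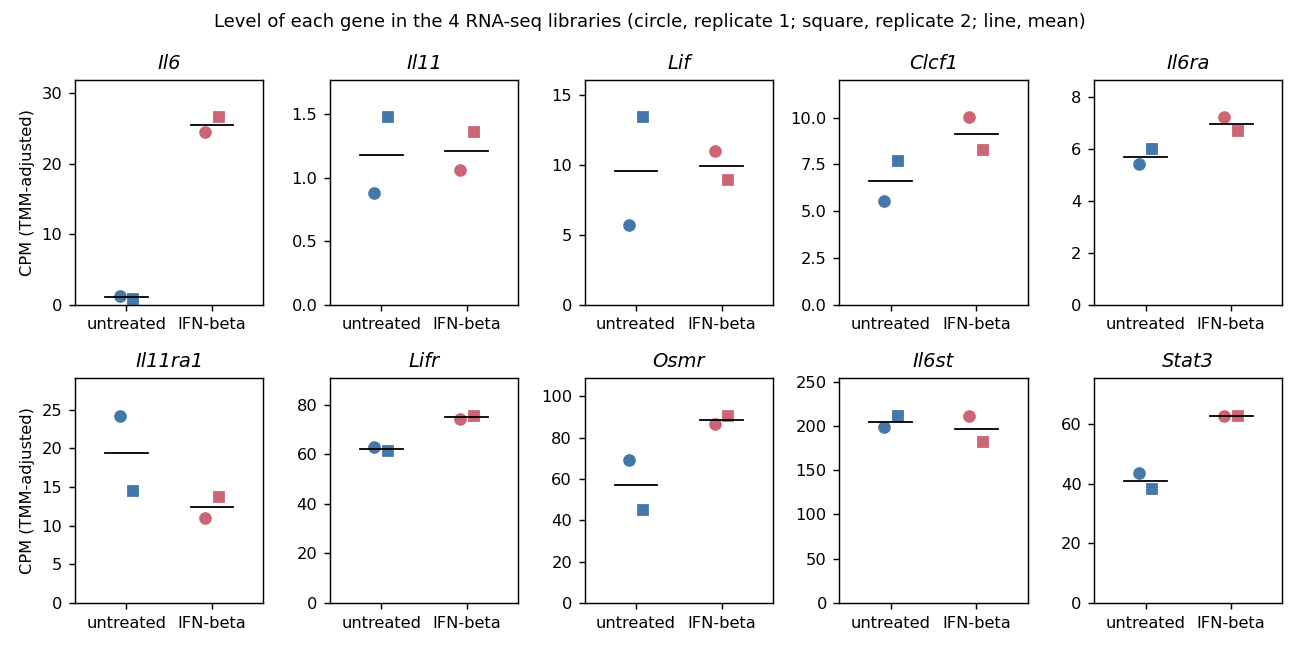
Depth-scaled counts (CPM, linear axis from 0) of each gene in the untreated (blue) and IFN-beta (red) libraries, with circles for replicate 1, squares for replicate 2 and a line at the mean. Il6 sits near 1 CPM in the untreated libraries and at 24.4 and 26.6 CPM after IFN-beta, and the untreated libraries lie far apart for Lif, Il11ra1 and Osmr.

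Among the cytokines, Il6 was the gene that was called. It encodes interleukin-6, a secreted driver of the acute phase response. Il6 had 23 and 22 counts in the untreated libraries and 436 and 528 counts after IFN-beta. Scaled to a library of 1000000 counts (CPM), its level was 1.19 and 0.834 CPM untreated and 24.4 and 26.6 CPM treated. Both treated libraries lay far above both untreated ones. This gave a log2 fold change of 4.67 ± 0.23 (SE, 95% interval 4.15 to 5.20, edgeR quasi-likelihood test, adjusted p = 4.35e-07), a fold between 17.7 and 36.7. By the size of its log2 fold change Il6 stood at place 115 among the 574 genes called higher, so that 79.97% of them rose by less. Its value ran from 4.41 to 4.95 over 13 alternative settings, each of which called it.

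The promoter window of Il6 is shown because the gene moved most, beside those of 2 of the 3 genes whose profile was closest to it. The windows run from 250 bases before to 50 bases after the start of transcription, are taken from RefSeq on GRCm38.p6 and are written 5′ to 3′ on the gene's strand. Searches on both strands used GAAANNGAAA for the interferon-stimulated response element, TTCNNNGAA for the gamma-activated site to which STAT dimers bind, GGGANTTTCC for an NF-kB site, TTGCNNAA for a C/EBP site, TGANTCA for an AP-1 site and TATAAA for a TATA box. Capitals mark every match. The Il6 window is chr5:30012864-30013163 on the plus strand, the Oas1c window chr5:120812465-120812764 on the minus strand and the Trim12c window chr7:104353300-104353599 on the minus strand.
Il6: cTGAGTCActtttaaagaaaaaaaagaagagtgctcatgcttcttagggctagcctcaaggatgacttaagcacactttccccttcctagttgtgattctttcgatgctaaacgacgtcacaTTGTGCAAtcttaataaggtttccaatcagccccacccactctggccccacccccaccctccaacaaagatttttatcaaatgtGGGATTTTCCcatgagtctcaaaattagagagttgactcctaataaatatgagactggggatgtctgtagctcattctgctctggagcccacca
Oas1c: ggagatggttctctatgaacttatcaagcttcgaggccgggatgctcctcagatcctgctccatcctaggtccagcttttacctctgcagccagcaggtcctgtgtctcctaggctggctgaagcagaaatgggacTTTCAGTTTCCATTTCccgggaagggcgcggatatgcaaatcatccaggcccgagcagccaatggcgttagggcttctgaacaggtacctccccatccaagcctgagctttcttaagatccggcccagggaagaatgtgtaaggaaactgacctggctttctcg
Trim12c: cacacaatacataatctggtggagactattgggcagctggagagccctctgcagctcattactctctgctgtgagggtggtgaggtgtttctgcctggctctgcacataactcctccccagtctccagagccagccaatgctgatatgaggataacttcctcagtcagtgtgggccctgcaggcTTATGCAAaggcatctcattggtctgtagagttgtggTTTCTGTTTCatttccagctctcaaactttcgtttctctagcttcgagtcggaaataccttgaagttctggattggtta

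In the Il6 window the capitals mark an AP-1 match that begins 249 bases before the start, a C/EBP match at 128 bases before it and an NF-kB match at 44 bases before it. These letters occur in 7.81%, 10.8% and 0.411% of all 32851 windows of this length, so the NF-kB match is the least common of them. No match to the interferon-stimulated response element or the gamma-activated site was found in the Il6 window. The AP-1 letters were also found in windows of members that were not called. They begin 98 bases before the start for Il11, 228 bases before it for Lif and at transcribed base 4 for Osmr. In the Oas1c window the capitals are 2 overlapping matches to the interferon-stimulated response element, which begin 114 and 108 bases before the start. In the Trim12c window the same motif begins 29 bases before the start and a C/EBP match 66 bases before it. The window of Xaf1, the gene closest to Il6 in profile, is not shown. It held an AP-1 match 38 bases before the start and no match to the other 5 motifs. The 2 neighbours shown are thus those with a match to the interferon-stimulated response element. The interferon-stimulated response element occurs in 3.44% of all windows, in 14.9% of the windows of genes called higher and in 2.43% of those of tested genes not called. The AP-1 motif occurs in 9.74% of the windows of genes called higher and in 4.88% of those not called. In the same order the NF-kB motif occurs in 1.29% (7 of 544 windows) and 0.372%, and the C/EBP motif in 10.8% and 8.11%. The motifs not found in the Il6 window also differ this way. The gamma-activated site occurs in 9.74% and 6.81%, and the TATA box in 13.1% and 6.9%. These matches describe letters in the windows and were not tested as binding sites.

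Lif and Il11 were not called, and their untreated libraries lay apart. Lif encodes leukaemia inhibitory factor, which keeps mouse embryonic stem cells undifferentiated. Lif had 109 and 354 counts untreated, or 5.66 and 13.4 CPM, and 196 and 177 counts treated, or 11.0 and 8.91 CPM. Both treated values lay between the untreated ones. Its log2 fold change was 0.04 ± 0.33 (SE, adjusted p = 0.965, 95% interval -0.70 to 0.79), which spans folds from 0.614 to 1.72. Its call rested on the choice of library: leaving out untreated replicate 1 gave -0.41 (adjusted p = 0.175), and leaving out the other untreated library gave 0.81 (adjusted p = 0.00176). It was below 0 under total library size and upper quartile scaling as well.

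Il11 encodes a cytokine linked to fibrosis and bone turnover. It had the fewest counts of the 10 genes, with 17 and 39 counts untreated (0.883 and 1.48 CPM) and 19 and 27 counts treated (1.06 and 1.36 CPM). The groups overlapped, with both treated libraries inside the untreated range. Il11 had a log2 fold change of 0.01 ± 0.38 (SE, adjusted p = 0.989), and its 95% interval of -0.84 to 0.87 is the widest of the 10 genes. Its sign also turned to below 0 under total library size and upper quartile scaling.

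Clcf1 encodes cardiotrophin-like cytokine factor, a relative of ciliary neurotrophic factor. Clcf1 was at 5.56 and 7.69 CPM untreated and at 10.0 and 8.26 CPM after IFN-beta. The treated libraries lay above the untreated ones by a small margin. A log2 fold change of 0.45 ± 0.22 (SE, 95% interval -0.04 to 0.95) was not called (edgeR adjusted p = 0.317), except without untreated replicate 2 (0.71, adjusted p = 0.00738).

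**Figure D2:**
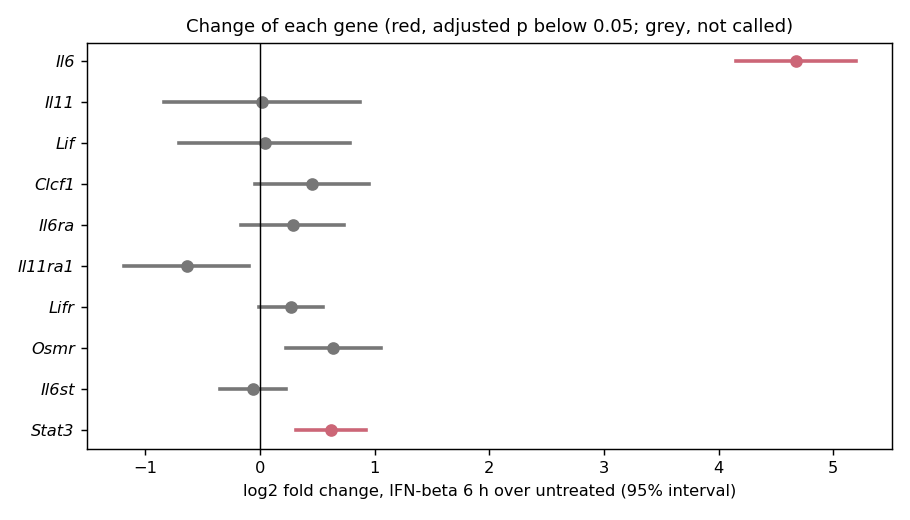
Log2 fold change of each gene after IFN-beta over untreated (point) with its 95% interval (line) from the edgeR fit, in red where the adjusted p is below 0.05. Il6 at 4.67 and Stat3 at 0.62 are the called genes, and the interval of Osmr also lies above 0 while its adjusted p is 0.0948.

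None of the 5 receptor genes passed the test over all genes. Osmr came closest. It encodes the oncostatin M receptor chain that pairs with gp130. Osmr was at 69.0 and 45.1 CPM in the untreated libraries and at 86.6 and 90.7 CPM after IFN-beta. The treated libraries lay close together, above both untreated ones, which differed from each other. The log2 fold change was 0.64 ± 0.19 (SE, 95% interval 0.22 to 1.06, edgeR adjusted p = 0.0948). It was called by DESeq2 (adjusted p = 0.0327), with a replicate block (0.0159), without a count filter (0.00077) and without either untreated library. Leaving out untreated replicate 1 gave 1.00, and leaving out the other gave 0.36.

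Il6st, the gene of the shared chain gp130, was at 199 and 211 CPM untreated and at 212 and 182 CPM treated. The groups overlapped. For Il6st the log2 fold change was -0.06 ± 0.13 (SE, edgeR adjusted p = 0.852), and the 95% interval of -0.35 to 0.23 leaves out a change of the size seen for Stat3. The sign turned to 0.05 without IFN-beta replicate 2.

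Il6ra encodes the chain that gives cells their specificity for IL-6. It had 104 and 158 counts untreated (5.40 and 5.99 CPM) and 129 and 133 treated (7.23 and 6.70 CPM). The treated libraries were slightly higher, without overlap. Its log2 fold change was 0.29 ± 0.20 (SE, 95% interval -0.16 to 0.73, edgeR adjusted p = 0.492), and 0 of 13 alternatives called it.

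Lifr encodes the LIF receptor chain, which CLCF1 also uses. Lifr was the steadiest receptor gene within groups, at 63.0 and 61.2 CPM untreated and 74.2 and 75.7 CPM treated. The groups stood apart by more than their own spread. The log2 fold change was nevertheless small, at 0.27 ± 0.12 (SE, 95% interval -0.0075 to 0.55), and was not called in the full fit (edgeR adjusted p = 0.287) or in any of 13 alternatives.

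Il11ra1, the gene of the IL-11 receptor alpha chain, was the member with the lowest log2 fold change. It was at 24.3 and 14.5 CPM untreated and at 11.0 and 13.7 CPM treated. The second untreated library lay near the treated ones and the first lay well above them. Its log2 fold change of -0.64 ± 0.24 (SE, 95% interval -1.19 to -0.09) was not called (edgeR adjusted p = 0.202). Leaving out untreated replicate 1 gave -0.21 and leaving out the other gave -0.97 (adjusted p = 2.26e-07), and the fit without a count filter called it as well (0.0132). The mouse genome holds near-identical copies of this gene, and Il11ra2 and Gm13305 are listed at 0 counts in all 4 libraries, so the level of Il11ra1 is uncertain where reads matched several copies.

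Stat3 rose modestly, with little spread between the treated libraries. Stat3 had 843 and 1009 counts untreated, or 43.8 and 38.2 CPM, and 1122 and 1251 counts treated, or 62.8 and 63.0 CPM. The treated libraries were nearly equal and lay above both untreated ones. The log2 fold change was 0.62 ± 0.14 (SE, 95% interval 0.32 to 0.92, edgeR adjusted p = 0.0255), a fold between 1.25 and 1.89. Stat3 stood at place 546 among the 574 genes called higher, so most of them rose by more. The direction held in 13 of 13 alternatives and the call in 9. The call was lost under total library size (adjusted p = 0.066) and upper quartile scaling (0.0506), and without IFN-beta replicate 1 (0.165) or replicate 2 (0.137). The Stat3 window held no match to any of the 6 motifs.

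**Figure D3:**
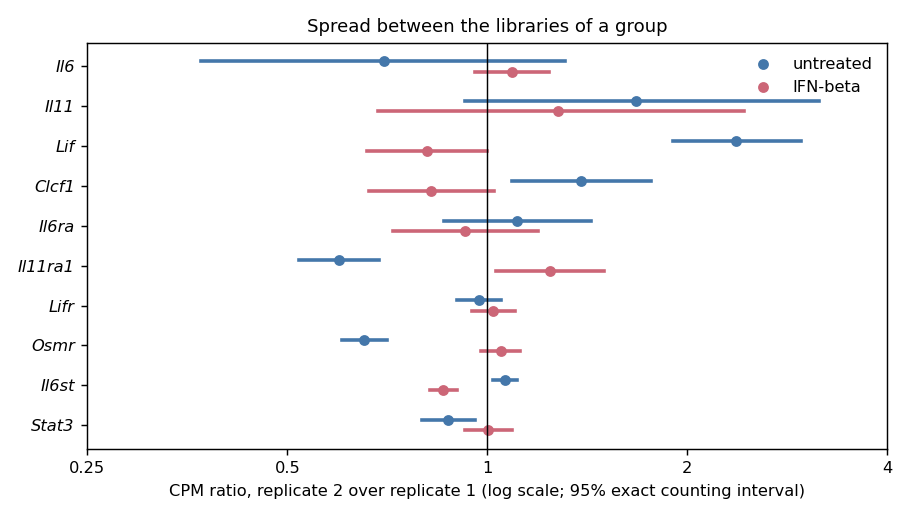
Ratio of CPM in replicate 2 over replicate 1 within each group (log axis) with the 95% exact interval, which covers counting error only. In the untreated group Lif lies at 2.37, Osmr at 0.653 and Il11ra1 at 0.598, with intervals that leave out 1, while the IFN-beta ratios of Osmr and Lif have intervals that include 1.

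Several of these genes varied more between the untreated libraries than counting error gives. The ratio of untreated replicate 2 over replicate 1 was 2.37 for Lif (95% exact interval 1.91 to 2.96), 1.38 for Clcf1 (1.09 to 1.77), 0.653 for Osmr (0.604 to 0.707), 0.598 for Il11ra1 (0.521 to 0.686), 0.873 for Stat3 (0.796 to 0.958) and 1.06 for Il6st (1.02 to 1.11). For Lif this difference was wider than for 98.3% of tested genes, and for Il11ra1 wider than for 92.7%. For Stat3 and Il6st it was wider than for only 43.9% and 21.1%, so most tested genes differed more. The median tested gene differed 1.17-fold between the untreated libraries and 1.10-fold between the treated ones. After IFN-beta, Il6st (0.859, interval 0.820 to 0.899) and Il11ra1 (1.24, interval 1.03 to 1.5) had intervals that left out 1. The ratios compare libraries, not conditions.

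**Figure D4:**
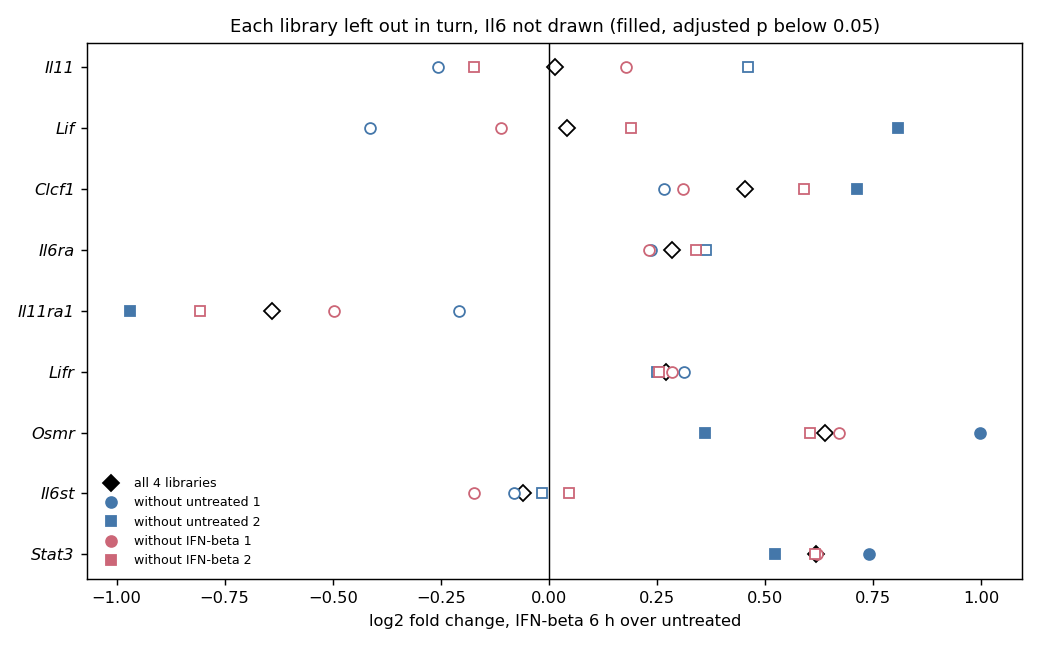
Log2 fold change of 9 genes with all libraries (black) and with each library left out (blue, untreated; red, IFN-beta), filled where the adjusted p is below 0.05 and with Il6 not drawn. Stat3 stays between 0.52 and 0.74, whereas Lif runs from -0.41 to 0.81 and Osmr from 0.36 to 1.00.

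In each such fit a group has 1 library, which is assumed to vary like the other group. Leaving out untreated replicate 2 raised the members called higher from 2 to 5 and added 1 called lower, and the genes called over the whole table went from 574 to 1877 higher and from 60 to 1732 lower. Leaving out either IFN-beta library left Il6 as the called member.

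Further genes of the pathway were read in 6 lists, also chosen with earlier results of these data known. The lists held 101 distinct symbols beside the 10 genes, of which 77 were tested. Of these, 8 were higher and 0 lower (edgeR), where 4.73% and 0.495% of all tested genes were called in those directions. At an unadjusted p below 0.05, 16 were higher and 4 lower, beside 9.6% and 8.55% of all tested genes. DESeq2 called 10 higher and 0 lower, and limma-voom 9 and 0. A list of 18 other gp130 family genes, 2 of them sheddase genes, had 4 tested genes. Of these 4, edgeR, DESeq2 and limma-voom called 0, and 0 had an unadjusted edgeR p below 0.05. The sheddase genes Adam10 (log2 fold change -0.03) and Adam17 (-0.12), whose proteases release soluble receptors, the leptin receptor gene Lepr (-0.04) and the cardiotrophin gene Ctf1 (-0.12) were the tested genes. The cytokine gene Osm, ligand of the Osmr product, had 1 count in all 4 libraries together, and Cntf and Cntfr had at most 9 counts in any library, so these were not tested.

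Of 14 JAK kinase and adaptor genes 1 was called, beside 5.23% of all tested genes. Jak2, a kinase bound to gp130 family receptors, rose from 70.3 and 67.1 CPM to 102 and 109.6 CPM, without overlap. Its log2 fold change was 0.62 ± 0.12 (SE, edgeR adjusted p = 0.0155), and the call was lost under total library size (adjusted p = 0.0515) and without either IFN-beta library (0.0641 and 0.169). Jak1, the main kinase of gp130 signalling, was at 0.21 ± 0.12 (adjusted p = 0.405). Ptpn11 (0.24) and Shc1 (-0.19), which carry the signal to the MAP kinase branch, and the SRC family kinase gene Yes1 (-0.44, adjusted p = 0.0917) were not called. The median of the list was 0.17.

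Among 4 other tested STAT genes Stat2 was called, beside the same 5.23%. Stat2, whose product works in the interferon-activated transcription complex, rose from 3.17 and 3.71 CPM to 98.5 and 129.9 CPM (log2 fold change 5.04 ± 0.20, edgeR adjusted p = 7.59e-08). The 95% interval of that change, 4.59 to 5.49, lies wholly above the Stat3 interval of 0.32 to 0.92, although the difference itself was not tested. Stat6 (0.07), Stat5b (0.03) and Stat5a (0.11), which serve other cytokines, were not called.

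Of 16 tested genes in a list of negative regulators 2 were higher, beside 4.73% of all tested genes. The list also holds Arid5a, whose product stabilises Il6 transcripts, and Arid5a was not called. Socs1, an inhibitor of JAK kinases, went from 2.55 and 5.08 CPM to 13.3 and 14.4 CPM (log2 fold change 1.83, adjusted p = 0.00288). Socs2 went from 30.6 and 25.2 CPM to 85.4 and 88.4 CPM (1.64, adjusted p = 4.27e-05). Socs3, the inhibitor that binds gp130 and is itself a STAT3 target, was at 9.82 and 11.3 CPM untreated and 16.4 and 16.2 CPM treated. Its groups stood apart, but its log2 fold change of 0.63 ± 0.17 (SE) was not called (edgeR adjusted p = 0.0725). Socs3 was called in 3 of 13 alternatives, which were no count filter and leaving out either untreated library. Trim28 (0.28), Ptpn2 (-0.07), Pias2 (-0.02) and Pdlim2 (-0.49) were not called either, and the median was -0.02.

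Textbook STAT3 target genes were called higher in 3 of 25 tested cases, beside 4.73% of all tested genes, and the list's median was 0.22 beside -0.02 for all tested genes. Ccl2, a monocyte chemokine, went from 77.4 and 62.0 CPM to 235 and 265 CPM (log2 fold change 1.84, adjusted p = 2.06e-05). Klf4 (1.55, adjusted p = 0.00175) and Myc (0.80, adjusted p = 0.0185), both transcription factor genes, were the others. These 3 genes also answer to other pathways. The Myc call was lost under total library size (adjusted p = 0.0558) and without IFN-beta replicate 1 (0.0795). Timp1, an inhibitor of matrix proteases, was at 0.71 (adjusted p = 0.0528, called in 8 of 13 alternatives), and the survival gene Mcl1 (-0.11), Hif1a (-0.24) and the cyclin gene Ccnd1 (0.39) were not called. The acute phase genes Lbp, Hp and A2m had 0 counts in all 4 libraries.

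Irf1 was the called gene in a list named Il6 promoter factors here. The list also holds the NF-kB inhibitor gene Nfkbia, and action on the Il6 promoter was not measured. Of 20 tested genes for NF-kB, C/EBP, AP-1 and related factors 1 was higher, a share close to the 4.73% of all tested genes, and the median was 0.12. Irf1, an interferon-induced transcription factor, went from 13.4 and 13.8 CPM to 95.9 and 120 CPM (log2 fold change 2.98 ± 0.16, edgeR adjusted p = 7.16e-07). The NF-kB gene Nfkb1 (0.20) and the AP-1 genes Fosl2 (0.14), Junb (0.22) and Jun (0.61, adjusted p = 0.0638) were not called. Jun passed by DESeq2, with the replicate block, without a count filter and without either untreated library.

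**Figure D5:**
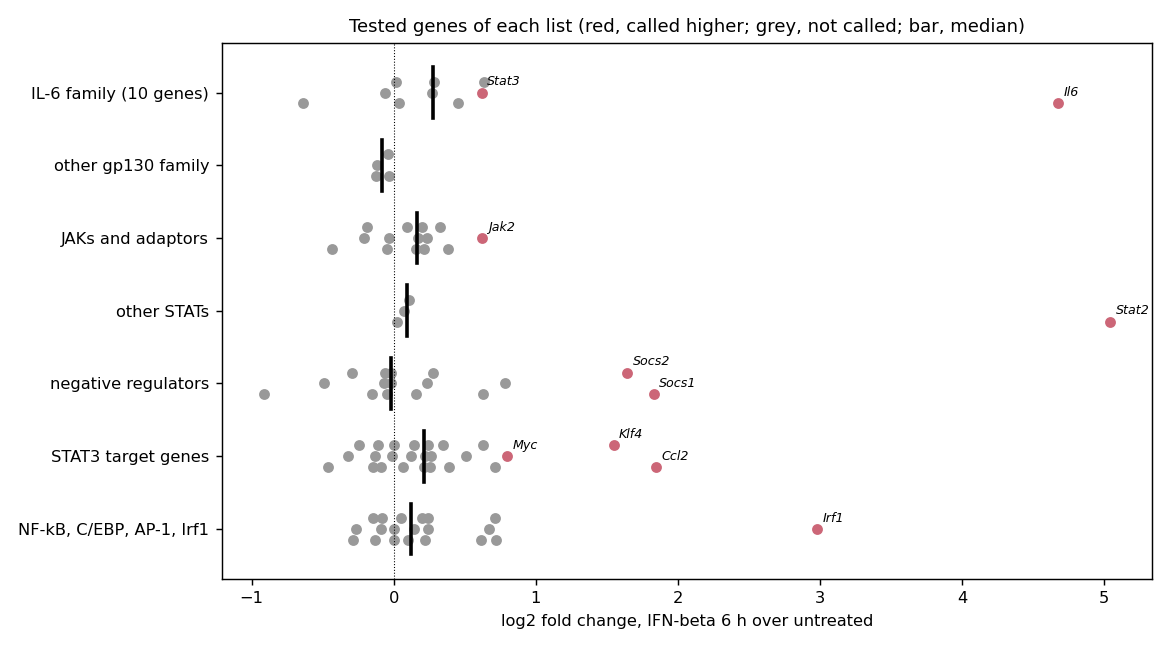
Log2 fold change after IFN-beta of every tested gene in the IL-6 family and 6 related lists, each point a gene, in red where called higher, with a bar at the list median. Il6 lies at 4.67, Stat2 at 5.04 and Irf1 at 2.98, and the list medians lie between -0.08 and 0.28.

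The genes whose profile over the 4 libraries was closest to a called member were found among 11349 genes by the distance between centred log2 CPM values. For Il6 these were Xaf1 (distance 0.0997), Trim12c (0.110) and Oas1c (0.126). Xaf1 was at 2.86 and 2.08 CPM untreated and 55.1 and 56.9 CPM treated, a log2 fold change of 4.52. For Stat3 they were Azi2 (0.0273), Mvp (0.0386) and D6Wsu163e (0.0553). Azi2 went from 99.2 and 89.0 CPM to 145 and 145 CPM (log2 fold change 0.62, edgeR adjusted p = 0.0155, lost without either IFN-beta library), while Mvp and D6Wsu163e were not called (adjusted p = 0.0574 and 0.0515) but passed in 4 and 7 of 13 alternatives. With 4 libraries in 2 groups these distances mainly describe the size of the change and the spread within groups.

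Markers of the labelled cell type were present. The 11 fibroblast markers summed to 8657 and 8196 CPM untreated and to 8823 and 9021 CPM treated. By edgeR, 0 of them were called at an adjusted p below 0.05, beside 5.23% of all tested genes. At an unadjusted p below 0.05, 2 were higher and 1 lower, beside 9.6% and 8.55% of all tested genes. S100a4 and Vim make up most of the sum. Their groups did not overlap, in opposite directions, and groups lay apart for 50.7% of all tested genes. For S100a4 the margin was very small, since replicate 2 was nearly equal in both groups. S100a4 was at 3918 and 2958 CPM untreated and 2391 and 2952 CPM treated, and Vim at 2340 and 2282 CPM untreated and 2887 and 2850 CPM treated. The log2 fold change was -0.62 for Pdgfra and 0.54 for Fn1, and neither was called (adjusted p = 0.199 and 0.205). Markers of leukocytes, which can make IL-6, summed to 24.6 and 18.6 CPM untreated and 22.0 and 16.8 CPM treated over 11 genes. Cd14 had 144 and 229 counts untreated and 134 and 178 treated. Csf1r had 99 and 137 counts untreated and 122 and 87 treated, and Lyz2 had 164 and 67, then 68 and 27. Cd68 had 16 and 18 counts untreated and 26 and 24 treated, without overlap, and was not called (log2 fold change 0.82, edgeR adjusted p = 0.274). Cd3e had 0 counts in every library. Of the 5 tested leukocyte markers 0 were called by edgeR, beside 5.23% of all tested genes, and their part in the results was not tested. With an unadjusted edgeR p below 0.05, 1 of these 5 was higher (Cd68) and 0 lower, beside 9.6% and 8.55% of all tested genes. Of 7 endothelial markers Cdh5 was called higher, with 2 and 6 counts untreated and 24 and 19 treated. Cdh5 passed the count filter only through the treated libraries, where it is high, so this call is weak support for a change. Under the stricter filter of CPM 1 in 2 libraries it was not tested. Kdr, the other tested gene of that list, had 10 and 18 counts untreated and 32 and 20 treated, without overlap, and was not called (log2 fold change 1.18, edgeR adjusted p = 0.177). Tek went the other way, with 5 and 2 counts untreated and 0 and 0 treated. Tie1 and Emcn were at 0, Pecam1 had at most 2 counts in any library and Vwf at most 3. These were not tested. The summed level of that list was 1.09 and 1.14 CPM untreated and 3.3 and 2.0 CPM treated, and its part in the results was not tested. Among epithelial markers Krt19 was at 49.5 and 65.4 CPM untreated and 43.7 and 49.1 CPM treated. Among muscle and neural markers Map2 was at 25.1 and 16.2, then 21.1 and 18.4 CPM, and Tubb3 at 4.68 and 4.81, then 3.53 and 4.08 CPM. None of these was called (edgeR adjusted p = 0.351, 0.914 and 0.5), and the other genes of these lists were not tested. In bulk RNA, fewer cells that express a gene and less RNA per cell cannot be told apart.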

How the data were processed

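The authors deposited raw counts of reads for each gene, with a table for each library. The submitters' processing notes name TopHat2 (version 2.0.13), HTSeq (version 0.7.2) and the mm9 build. Annotation and strand use are not given in the sources used here, so an overlapping gene on the opposite strand could share reads. Lines that name no gene held 57.3% to 61.3% of records and were left out. Gene counts ran from 18528685 (untreated replicate 1) to 24817342 (untreated replicate 2), and those of the IFN-beta libraries were 18901845 and 20714161. Intervals on single ratios cover counting error only. The chromatin samples were not analysed here.

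All genes were fitted with edgeR 4.0.16 in R 4.3.3 (quasi-likelihood test, TMM, default filter with minimum count 10 and total 15), with Benjamini-Hochberg adjustment over 12128 genes. A call is an adjusted p below 0.05. CPM used TMM-adjusted library sizes. A standard error is the log2 fold change divided by the square root of F. No level was compared between genes, since no transcript lengths of the files' build were used. Alternatives were other scalings, filters, DESeq2 1.42.0, limma-voom (limma 3.58.1), a replicate block and each library left out. A fit without Rn45s, Lars2 and Mir6236 was chosen after the data were seen. The procedure was tested on simulated data.

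Members and lists were chosen with earlier results of these data known. Named were all members, called genes of each list plus its 4 uncalled tested genes with the highest mean CPM, and the 3 genes of mean CPM 1 or more closest in profile to each called member (prior count 2). A few genes of the lists are not reported here and were left out of the list counts. Socs3, the marker genes and the untested or unexpressed genes were named after their values were seen. Promoter windows (RefSeq, GRCm38.p6) were found for 9 of 10 members, 3 of which have 2, and for 6 of 6 profile neighbours.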

Additional observations from a re-analysis of the deposited data

How the results depend on the processing

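Il6 was called higher under all 13 alternatives. The scalings moved the level of all genes: the median log2 fold change over tested genes was -0.02 with TMM, -0.16 with total library size and -0.09 with upper quartile scaling. With total library size, 1 IL-6 family member (Il6) was called higher, the JAK list had 0 higher and 1 lower, and 349 genes were lower in all. Values there were 0.48 for Stat3, -0.13 for Il11, -0.11 for Lif, -0.035 for Stat5a, -0.12 for Stat5b, -0.070 for Stat6 and -0.0066 for Fosl2. With upper quartile scaling 1 member was called higher and 128 genes were lower in all, and values were 0.55 for Stat3, -0.055 for Il11, -0.028 for Lif and -0.047 for Stat5b. Without a count filter 863 genes were higher and 381 lower, 1 member was lower (Il11ra1, -0.64), Osmr was called (0.64), and the negative regulator list had 4 higher (Arid5a among them) and 1 lower, the STAT3 targets 5 higher and the Il6 promoter factors 4 higher. DESeq2 gave 103 lower genes, 2 Il6 promoter factors higher and Osmr called (0.64).

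The replicate numbers do not pair the libraries as far as the labels say. Deviations of equally numbered libraries correlated at -0.0334 over 12128 genes, and the replicate block gave 151 lower genes, 3 Il6 promoter factors higher and Osmr called (0.67).

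With each library left out in turn, genes called over the table ran from 475 to 1877 higher and from 24 to 1732 lower, and members called from 1 to 5 higher and from 0 to 1 lower. Counts higher ran from 0 to 4 for JAK genes, 2 to 5 for negative regulators, 3 to 9 for STAT3 targets and 1 to 5 for Il6 promoter factors. Counts lower ran from 0 to 1 for these lists, or 0 to 2 for STAT3 targets. Log2 values ran from 0.52 to 0.74 for Stat3, 0.36 to 1.00 for Osmr, -0.97 to -0.21 for Il11ra1, 0.27 to 0.71 for Clcf1, -0.41 to 0.81 for Lif, -0.26 to 0.46 for Il11 and -0.17 to 0.047 for Il6st. Signs of genes near 0 also turned, for Adam10 (-0.12 to 0.086), Ctf1 (-0.42 to 0.21), Fosl2 (-0.070 to 0.32), Lepr (-0.37 to 0.24), Mcl1 (-0.24 to 0.048), Nfkb1 (-0.00077 to 0.47), Pias2 (-0.057 to 0.024), Ptpn2 (-0.16 to 0.045), Stat5a (-0.18 to 0.36) and Zc3h12a (-0.40 to 0.23). The cause was not tested. Genes with few counts, such as Il11 and untreated Il6, have the widest counting intervals.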

Other observations

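Among regulators of Il6 transcript stability, Arid5a and Zc3h12a were read, and neither was called in the main fit. Arid5a, which stabilises Il6 transcripts, was at 4.73 and 6.97 CPM in the untreated libraries and at 10.3 and 10.0 CPM after IFN-beta. The groups stood apart, and the log2 fold change of 0.78 ± 0.22 (SE) was not called (edgeR adjusted p = 0.0876), although it passed without a count filter, with the replicate block and without untreated replicate 2. Zc3h12a, whose product Regnase-1 degrades Il6 transcripts, was at 2.65 and 4.17 CPM untreated and at 3.19 and 3.02 CPM treated (-0.15 ± 0.28, adjusted p = 0.826). Its groups overlapped. Both genes were named after their values were seen.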
